A study of Rattus norvegicus with 24 samples.

Results

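The acute phase plasma proteins measured here are 10 genes, Crp, Hp, Orm1, A2m, Fga, Fgb, Fgg, Itih4, Lcn2 and C3. Their rows were taken by gene name from a liver expression table of 30958 rows, of which 12151 genes passed the filter for testing. Each of the 10 names matched a row, 9 members passed the filter, and A2m was listed at 0 in all 24 livers. RNA was sequenced from the livers of 24 female Sprague-Dawley rats, with 1 library per rat and 8 rats per group. DL.reuteri rats were kept in darkness for 24 h per day and received Limosilactobacillus reuteri at 100 mg per day by gavage, darkness rats were kept in the same darkness with saline by gavage, and control rats lived with 12 h of darkness a day and also received saline. All rats were wild type, started at 6 weeks of age, were treated for 8 weeks and were sampled fasted at 14 weeks. The study set these groups against each other to ask how the bacterium acts on livers of rats with a disrupted daily rhythm. The rats shared cages that the labels do not name, so tests that treat rats as independent may give p-values that are too small.

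The acute phase response is the change in plasma proteins that the liver makes when infection or injury raises cytokines in the blood. Interleukin-6 acts on hepatocytes through gp130, the Janus kinases and the transcription factor STAT3, and together with C/EBP factors this raises the transcription of positive acute phase genes, while negative acute phase genes such as those of albumin and transthyretin fall. In the rat, alpha-2-macroglobulin and alpha-1-acid glycoprotein are the strong reactants, whereas C-reactive protein is present in healthy animals at a high level.

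The livers carried the markers of hepatocytes, with Alb at 8028 FPKM or more in every library. FPKM are fragments scaled to the length of a gene and to all mapped fragments of the library, so levels can be set beside each other between genes. Libraries differed in the share of FPKM taken by 13 mitochondrially encoded genes, which was 18.8 to 85.0% in DL.reuteri, 12.4 to 59.7% in darkness and 21.0 to 52.6% in control livers. The library of DL.reuteri 3 stood apart at 85.0%. Summed over 8 adipocyte markers, DL.reuteri 2 had 185 FPKM and control 8 had 353 FPKM, against 20.6 to 50.5 FPKM in the other 22 livers, and fits without these 2 livers and with an adipocyte covariate are among the alternatives. Because of DL.reuteri 3, results are given with it (24 libraries) and without it (23 libraries). Depth cannot be read from FPKM and is unknown here, so precision rests on the spread between rats. In whole liver, fewer cells of a type and less RNA per cell cannot be told apart.

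Haptoglobin was the most abundant member, and lipocalin 2 was by far the lowest of those detected. Over the 23 libraries without DL.reuteri 3, Hp had a median of 6315 FPKM, followed by Fgg at 1901, C3 at 1567, Fga at 1405, Fgb at 1347, Itih4 at 1150, Orm1 at 1128 and Crp at 918 FPKM. Lcn2 had a median of 13.4 FPKM. Hp exceeded Fgg, and Crp exceeded Lcn2, in 23 of 23 libraries, so both ends of the order held in each rat. The order between them was looser. Fgg exceeded C3 in 14 of 23 libraries and Orm1 exceeded Crp in 14, while Itih4 exceeded Orm1 in only 9, so these neighbours were not apart beyond the spread between rats. C3 was above Fga in 18 libraries, Fga above Fgb in 19 and Fgb above Itih4 in 18. By its group mean, Hp ranked 8th in DL.reuteri, 5th in darkness and 5th in control livers among 30944 genes outside the mitochondrial genome. Lcn2 ranked 4831st in DL.reuteri, 1405th in darkness and 2545th in control livers.

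**Figure D1:**
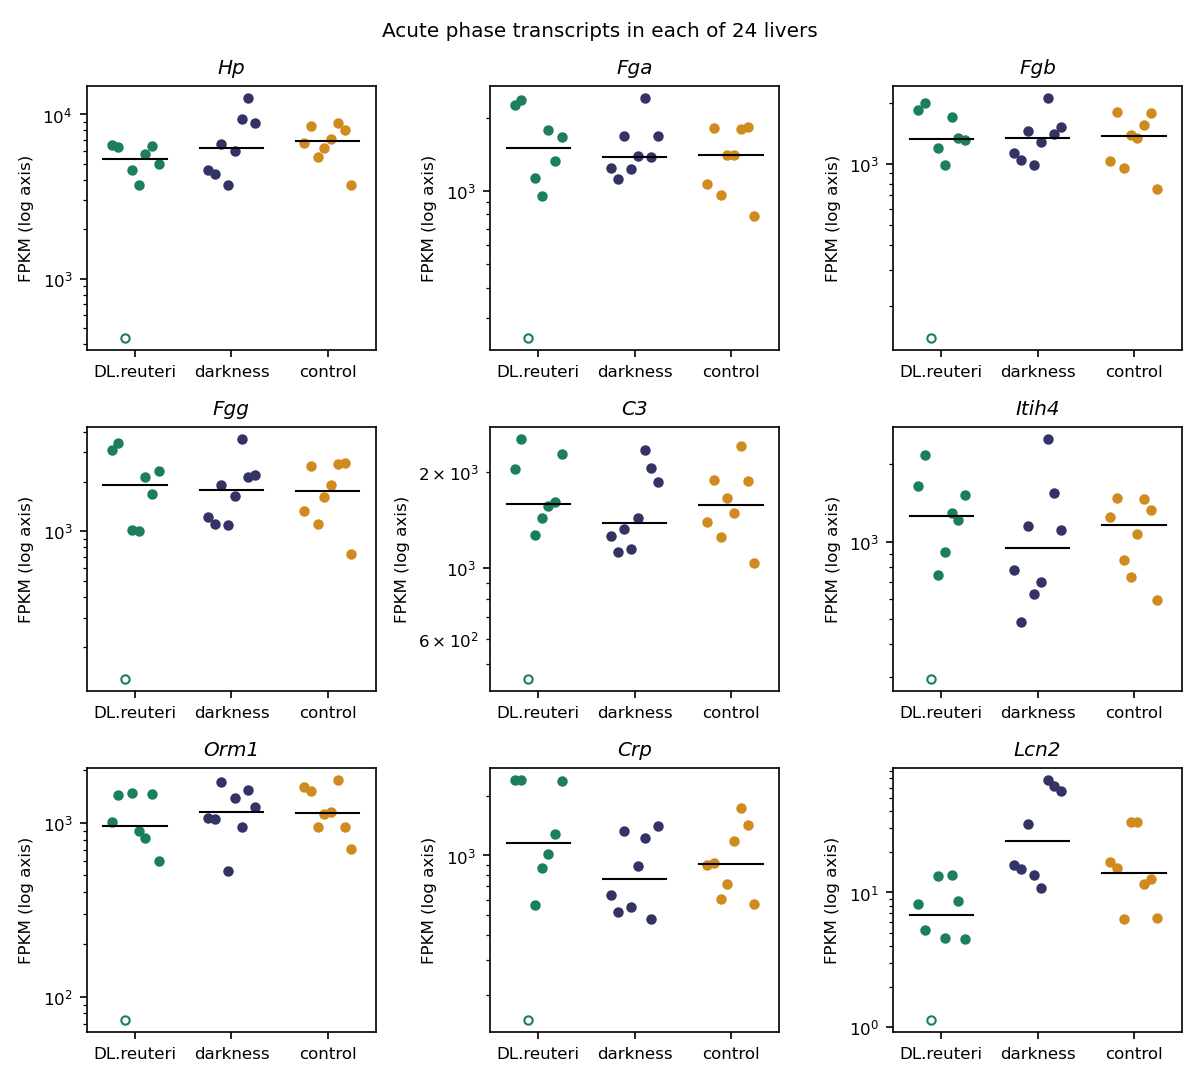
FPKM of the 9 detected members on log axes, with 1 point per liver, DL.reuteri, darkness and control groups from left to right, and the group median as a line. The open point is DL.reuteri 3, which is the lowest of the 24 livers for every member shown, and the Lcn2 panel shows 6 of 8 darkness livers above every DL.reuteri liver.

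Lcn2 encodes lipocalin 2, a secreted protein that binds bacterial siderophores and so withholds iron, and it is made by hepatocytes and by neutrophils. In RefSeq for GRCr8, 179 bases before the gene lie at chr3:36081852-36082030 on the minus strand. They are shown because Lcn2 separated the groups most. Capitals mark a match to the core of the interleukin-6 response element (CTGGGAA) and a match to a C/EBP element (TTGCNNAA).
Lcn2: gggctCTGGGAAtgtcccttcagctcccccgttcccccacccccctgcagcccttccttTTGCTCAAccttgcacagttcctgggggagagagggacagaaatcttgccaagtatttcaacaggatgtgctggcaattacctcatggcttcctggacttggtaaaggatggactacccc
Both matches are descriptions of the sequence, and no binding was measured.

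Lcn2 was lowest in livers of DL.reuteri rats and highest in livers of darkness rats. It had 8.22, 5.29, 1.13, 13.2, 4.56, 13.4, 8.61 and 4.53 FPKM in DL.reuteri rats 1 to 8. In darkness rats 1 to 8 it had 16.0, 15.0, 32.2, 13.4, 10.8, 68.2, 61.2 and 56.5 FPKM. In control rats 1 to 8 it had 16.9, 15.2, 6.38, 33.3, 33.3, 11.6, 12.5 and 6.45 FPKM. Darkness rats 6, 7 and 8 stood above every control rat, and the other 5, at 10.8 to 32.2 FPKM, lay within the control range. Livers 6, 7 and 8 had mitochondrial shares of 16.5, 12.4 and 31.2%, against 41.3 to 59.7% in the other 5. The part of this share in the Lcn2 values was not tested. Of 8 darkness rats, 6 lay above every DL.reuteri rat, and 6 of 8 DL.reuteri rats lay below every darkness rat. Darkness and DL.reuteri groups thus overlapped at 2 rats on each side. Against control rats, 4 of 8 DL.reuteri rats lay below the whole control group. The means were 7.37 ± 4.34 FPKM in DL.reuteri, 34.2 ± 24.1 in darkness and 17.0 ± 10.7 in control livers (SD, n = 8 each).

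Between DL.reuteri and darkness livers, the log2 difference of Lcn2 was -1.95 (SE 0.43) by limma on log2(FPKM + 1), a fold of 0.258. Its unadjusted p was 0.000121 and its Benjamini-Hochberg adjusted p over 12151 genes was 0.0551, which misses 0.05. Without DL.reuteri 3 the difference was -1.70 (SE 0.41), with an adjusted p of 0.0131 by limma, and Lcn2 fell in DL.reuteri livers by this test. Without DL.reuteri 4 the adjusted p by limma was 0.041. With FPKM rescaled by median ratios between libraries, the difference was -2.05 (SE 0.40) and the limma adjusted p was 0.00726. The direction was the same in each of the 24 fits that left out 1 library, between -2.13 and -1.70, with a limma adjusted p of 0.0131 to 0.117 and under 0.05 in 2 of the 24. With the library term that Ballgown uses and without DL.reuteri 3, the difference was -1.65 and the limma adjusted p was 0.513, and 0 of 12151 genes were called.

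Between darkness and control livers the log2 difference of Lcn2 was 0.86 (SE 0.43), with an unadjusted limma p of 0.0569 and an adjusted p of 1.0. Between DL.reuteri and control livers it was -1.09 (SE 0.43), with an unadjusted limma p of 0.018 and an adjusted p of 0.291. Neither passed the threshold. Rescaled by median ratios, the differences were 0.94 (SE 0.40) and -1.10 (SE 0.40), with unadjusted limma p of 0.0273 and 0.0110. Without DL.reuteri 3 they were then 0.94 (SE 0.39) and -0.93 (SE 0.40), with unadjusted limma p of 0.0228 and 0.0295. None of these passed the adjusted threshold. The comparisons share their groups, so their values are not independent of each other.

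Lcn2 is also a product of neutrophil granules. S100a8 and S100a9, the main cytosolic proteins of neutrophils, had means of 5.56 and 10.6 FPKM in DL.reuteri livers. These means were 2.98 and 6.79 FPKM in darkness livers, and 2.06 and 5.46 FPKM in control livers. The DL.reuteri group, with the lowest Lcn2, had the highest means of both. By median, S100a8 was also highest in DL.reuteri livers, at 4.95 FPKM. The median of S100a9 was 7.36 FPKM in DL.reuteri, 7.98 in darkness and 5.49 in control livers. Markers at lower levels went both ways between DL.reuteri and darkness livers. The mean of Camp was 0.0470 and 0.136 FPKM, and that of Mmp8 was 0.341 and 0.233 FPKM. Summed over 11 neutrophil markers, livers had 2.86 to 42.5 FPKM in the DL.reuteri, 3.30 to 18.2 in the darkness and 5.03 to 11.2 in the control group. The granule markers Mpo, Elane, Camp and Ngp stayed at or under 1.13 FPKM in all 24 livers, and Elane was at 0 in 7 of 8 DL.reuteri, 7 of 8 darkness and 8 of 8 control livers. The 2 neutrophil markers that passed the filter were not called in any of the 3 comparisons. Summed over 10 markers of Kupffer cells and macrophages, livers had 30.4 to 615 FPKM in the DL.reuteri, 170 to 536 in the darkness and 221 to 575 in the control group, and the lowest value was that of DL.reuteri 3. The part of immune cells in the Lcn2 values was not tested further.

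**Figure D2:**
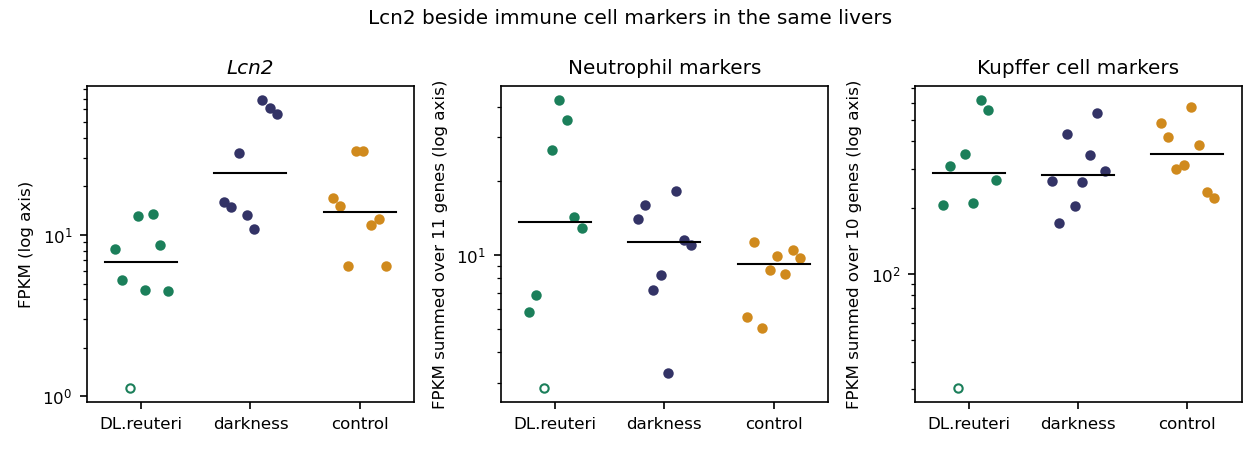
Lcn2, 11 summed neutrophil markers and 10 summed Kupffer cell and macrophage markers in FPKM on log axes, 1 point per liver, with group medians as lines and DL.reuteri 3 as the open point. The 3 livers with the highest Lcn2, at 56.5 to 68.2 FPKM, are darkness livers. The highest neutrophil sum, 42.5 FPKM, is in a DL.reuteri liver, and the ranges of the groups overlap.

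Hp encodes haptoglobin, which binds free haemoglobin in plasma. It had 435 FPKM in the lowest, 5392 in the median and 6525 in the highest DL.reuteri liver. In darkness livers these values were 3752, 6284 and 12593 FPKM, and in control livers 3723, 6869 and 8915 FPKM. The groups overlapped widely, and darkness 6 and 7, at 9366 and 12593 FPKM, exceeded every control and DL.reuteri liver. The log2 difference between DL.reuteri and darkness livers was -0.72 (SE 0.42, limma adjusted p = 0.413) with 24 libraries and -0.26 (SE 0.24, limma adjusted p = 0.517) with 23. Rescaled by median ratios it was -0.79 (SE 0.33) with 24 libraries and -0.45 (SE 0.22) with 23. The unadjusted limma p were then 0.0265 and 0.0473, and the adjusted p 0.193 and 0.230. With the library term of Ballgown it was -1.17 with a limma adjusted p of 0.022, and without DL.reuteri 3 it was -0.14 with 0.899.

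Orm1 encodes alpha-1-acid glycoprotein, a plasma carrier of basic drugs and lipids. It had 73.0, 953 and 1479 FPKM in the lowest, median and highest DL.reuteri liver, 525, 1152 and 1722 FPKM in darkness livers, and 709, 1143 and 1762 FPKM in control livers. The 7 DL.reuteri livers other than DL.reuteri 3 had 607 FPKM or more and lay within the range of the darkness group. The log2 difference between DL.reuteri and darkness was -0.58 (SE 0.43) with 24 libraries and -0.10 (SE 0.25) with 23, with limma adjusted p of 0.541 and 0.836. With the library term of Ballgown it was -1.09 with a limma adjusted p of 0.0237, and without DL.reuteri 3 it was -0.26 with 0.809.

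Crp encodes C-reactive protein, a pentraxin that binds phosphocholine on microbes and damaged cells. It had 149, 1149 and 2392 FPKM in the lowest, median and highest DL.reuteri liver, 481, 759 and 1410 FPKM in darkness livers, and 571, 908 and 1729 FPKM in control livers. DL.reuteri 1, 2 and 8, at 2392, 2383 and 2357 FPKM, stood above all 16 darkness and control livers, whereas the other 4 DL.reuteri livers besides DL.reuteri 3 had 564 to 1277 FPKM. These 3 livers had mitochondrial shares of 18.8 to 20.0%, and the part of this share in the Crp values was not tested. Without DL.reuteri 2 and control 8, the livers high in adipocyte markers, the log2 difference of Crp between DL.reuteri and darkness was 0.18 with a limma adjusted p of 0.882. The log2 difference between DL.reuteri and darkness was 0.35 (SE 0.44, limma adjusted p = 0.743) with 24 libraries. It was 0.75 (SE 0.33) with 23, with an unadjusted limma p of 0.0321 and an adjusted p of 0.144. Rescaled by median ratios, the difference with 23 libraries was 0.56 (SE 0.32), with an unadjusted limma p of 0.0927 and an adjusted p of 0.330. Crp thus passed no adjusted test.

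Fga, Fgb and Fgg encode the alpha, beta and gamma chains of fibrinogen, which thrombin turns into fibrin and which are secreted as a hexamer of paired chains. The genes are neighbours on chromosome 2. Bases before each gene are shown from RefSeq for GRCr8 because the chains kept together from rat to rat. The bases shown for Fga lie at chr2:170671919-170672168 on the plus strand, those for Fgb at chr2:170700876-170701125 on the minus strand and those for Fgg at chr2:170652833-170652928 on the plus strand. Capitals mark CTGGGAA in Fgb and Fgg, TTGCNNAA in Fgb, and a spaced STAT palindrome (TTCNNNGAA) in Fga and Fgb. In Fga they also mark TTGAGCAA, a match to TTGCNNAA on the other strand. A second CTGGGAA of Fgg lay 61 bases before the start site of the window and outside the bases shown.
Fga: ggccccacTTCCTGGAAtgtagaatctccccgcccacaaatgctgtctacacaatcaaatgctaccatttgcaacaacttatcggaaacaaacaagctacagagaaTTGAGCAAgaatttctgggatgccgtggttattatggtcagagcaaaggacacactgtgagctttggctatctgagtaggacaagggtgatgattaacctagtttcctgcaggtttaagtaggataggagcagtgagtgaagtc
Fgb: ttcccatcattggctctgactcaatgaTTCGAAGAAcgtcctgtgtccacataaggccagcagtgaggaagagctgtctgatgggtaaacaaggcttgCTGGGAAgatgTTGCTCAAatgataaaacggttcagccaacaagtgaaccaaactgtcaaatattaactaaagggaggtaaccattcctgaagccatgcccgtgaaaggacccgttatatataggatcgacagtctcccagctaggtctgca
Fgg: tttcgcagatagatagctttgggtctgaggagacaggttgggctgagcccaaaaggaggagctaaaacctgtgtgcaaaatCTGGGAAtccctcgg

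The motifs were searched on both strands in windows of 300 bases, 250 before and 50 after the start site, for the 8 members with a RefSeq window, all but Hp and A2m. CTGGGAA occurred in the windows of 5 of 8 members (C3, Fgb, Fgg, Itih4 and Lcn2) and in 11.3% of 33469 windows of all genes. TTGCNNAA occurred in 6 of 8 (C3, Fga, Fgb, Itih4, Lcn2 and Orm1) and in 10.6% of all windows, and TTCNNNGAA in 3 of 8 (Fga, Fgb and Itih4) and in 8.87%. In Itih4 the CTGGGAA and TTCNNNGAA matches overlapped. The exact HNF1 palindrome occurred in 0 of 8 and in 1 of 33469 windows of all genes (0.00299%). A string this rare cannot tell whether the members hold HNF1 sites. The window of Crp held none of the 4 motifs. These letters say nothing on whether a factor bound there.

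The fibrinogen chains differed little between groups. Fga had 247, 1494 and 2360 FPKM in the lowest, median and highest DL.reuteri liver, 1120, 1382 and 2410 in darkness livers, and 785, 1406 and 1835 in control livers. Fgb had 139, 1331 and 2001 FPKM in DL.reuteri, 984, 1346 and 2106 in darkness, and 753, 1369 and 1792 in control livers. Fgg had 127, 1909 and 3443 FPKM in DL.reuteri, 1099, 1777 and 3618 in darkness, and 726, 1756 and 2591 in control livers. The lowest value of each chain was that of DL.reuteri 3, and the groups overlapped over most of their range. Between DL.reuteri and darkness livers the log2 differences were -0.25 for Fga, -0.30 for Fgb and -0.35 for Fgg with 24 libraries. With 23 libraries they were 0.08, 0.12 and 0.14. With 23 libraries rescaled by median ratios they were -0.11 for Fga, -0.0734 for Fgb and -0.0511 for Fgg, so the sign moved with both the library and the scaling, and limma adjusted p lay above 0.05 each time. The 95% intervals with 23 libraries were -0.38 to 0.54 for Fga, -0.30 to 0.53 for Fgb and -0.51 to 0.79 for Fgg.

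The ratio of the alpha to the beta chain was close to 1 in most livers. Fga over Fgb was 1.09 ± 0.132 in 7 DL.reuteri livers, 1.11 ± 0.0802 in 8 darkness livers and 1.04 ± 0.0471 in 8 control livers (SD), and it was 1.78 in DL.reuteri 3. Fgg over Fgb was 1.36 ± 0.364 in the 7 DL.reuteri, 1.32 ± 0.235 in the darkness and 1.31 ± 0.212 in the control livers, and 0.912 in DL.reuteri 3.

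Itih4 encodes an inter-alpha-trypsin inhibitor heavy chain of plasma. It had 292, 1254 and 2173 FPKM in the lowest, median and highest DL.reuteri liver, 489, 943 and 2503 in darkness livers, and 596, 1160 and 1477 in control livers. Darkness 6 had the highest Itih4 of all livers, at 2503 FPKM. C3 encodes the central component of complement, on which its activation pathways converge. It had 447, 1591 and 2542 FPKM in DL.reuteri, 1122, 1384 and 2341 in darkness, and 1038, 1573 and 2414 in control livers, and the groups overlapped. The log2 differences between DL.reuteri and darkness were 0.13 for Itih4 and -0.02 for C3 with 24 libraries, and 0.40 and 0.22 with 23, with no limma adjusted p under 0.05.

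A2m encodes alpha-2-macroglobulin, a wide protease inhibitor. It was listed at 0 FPKM in 24 of 24 livers, so no fold was computed. An exact 0 in a table without counts can be a failed estimate, or a transcript that was absent or too low to detect. Which of these holds was not tested. A2m has close relatives in the rat genome. Pzp, a related macroglobulin, was at 184 to 1593 FPKM in DL.reuteri, 477 to 1210.1 in darkness and 576 to 1126 in control livers. How the authors' counting shared reads between the relatives is not given in the sources used here.

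Of the 9 members tested, limma called 0 between DL.reuteri and darkness livers at an adjusted p under 0.05. Of all 12151 genes 0.0823% were called, 0.0247% higher and 0.0576% lower. At an unadjusted p under 0.05 limma found 1 of 9 lower, Lcn2, and 0 higher, where 16.8% of all genes passed, 12.0% higher and 4.89% lower. Without DL.reuteri 3, 1 of 9 members was called lower (Lcn2) and 0 higher, where 10% of all genes were called, 8.81% higher and 1.23% lower. At an unadjusted limma p on the FPKM as deposited, 1 member was then lower (Lcn2) and 1 higher (Crp). Of all genes 26.7% passed, 22.8% higher and 3.94% lower. With median ratios 1 of 9 members was called lower, again Lcn2, where 3.74% of all genes were called, 1.41% higher and 2.34% lower. The median log2 difference of the 9 members was -0.30 with 24 libraries and 0.12 with 23, beside 0.07 and 0.15 over all genes tested. With median ratios it was -0.37 with 24 libraries and -0.0734 with 23, beside 0.0117 and 0.00812 over all genes. The sign of the members' median thus depended on the library and the scaling together.

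Between darkness and control livers 0 of 9 members were called, where 0.0% of all genes were called by limma. At an unadjusted limma p under 0.05 it was 0 of 9 members, where 2.78% of all genes passed, 0.477% higher and 2.3% lower. Without DL.reuteri 3 the unadjusted limma p of Lcn2 was 0.0399, so 1 of 9 was higher, where 3.95% of all genes passed, 0.593% higher and 3.36% lower. DL.reuteri 3 is in neither of these groups. The log2 difference of Lcn2 was 0.86 in both fits, and its SE, which draws on all 3 groups, was 0.43 with that library and 0.40 without. Apart from Lcn2, the log2 differences of the members lay between -0.22 and 0.15, with SEs of 0.28 to 0.48 with 24 libraries. With 23 libraries the 95% interval for Hp was -0.50 to 0.44 and that for C3 was -0.45 to 0.34.

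Between DL.reuteri and control livers limma called 0 of 9 members, where 0.14% of all genes were called, 0.0411% higher and 0.0988% lower. At an unadjusted limma p 1 of 9 was lower (Lcn2), where 13.2% of all genes passed, 6.43% higher and 6.81% lower. Without DL.reuteri 3 it was 0 of 9 by both, where 2.07% of all genes were called and 19.2% passed unadjusted. The log2 difference of Hp was -0.75 (SE 0.42) with 24 libraries and -0.30 (SE 0.24) with 23, with limma adjusted p of 0.455 and 0.532. Rescaled by median ratios it was -0.73 (SE 0.33) and -0.40 (SE 0.22), with limma adjusted p of 0.260 and 0.346. The comparisons of DL.reuteri with darkness and with control share the DL.reuteri livers.

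**Figure D3:**
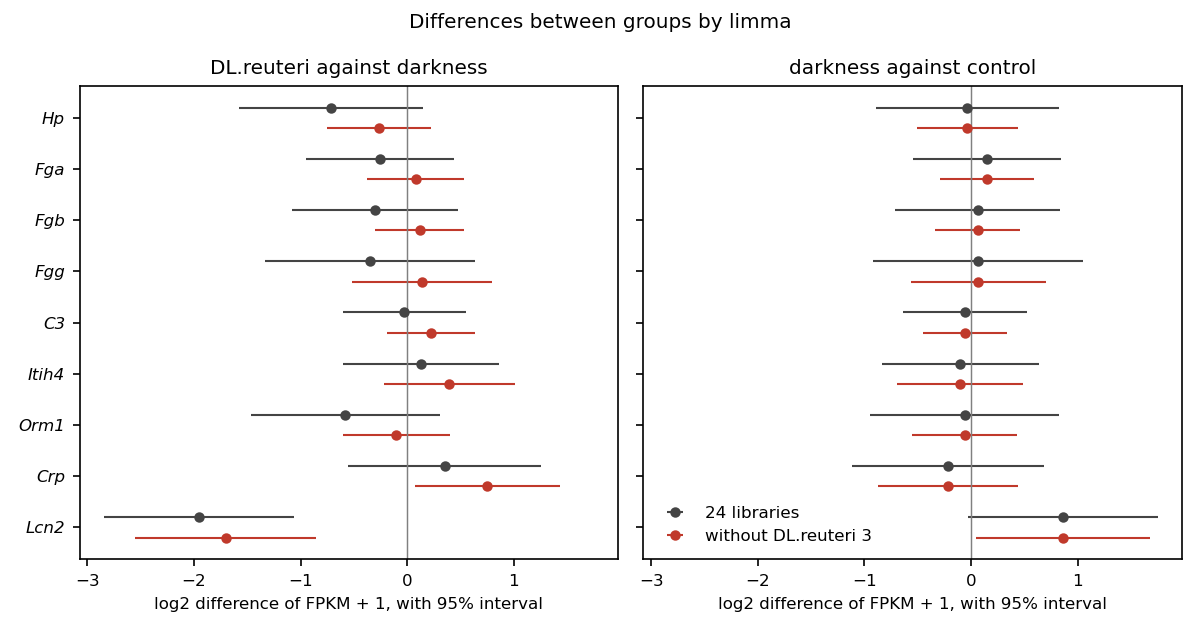
Log2 differences of FPKM + 1 by limma with 95% intervals for 9 members, DL.reuteri against darkness on the left and darkness against control on the right, with 24 libraries (grey) and without DL.reuteri 3 (red). Lcn2 alone lies below 0 with its whole interval for DL.reuteri against darkness in both fits, and the fibrinogen chains change side of 0 for DL.reuteri against darkness when DL.reuteri 3 is left out of the FPKM as deposited.

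Most pairs of members, 23 of 36, were correlated from rat to rat. After rescaling by median ratios and subtraction of group means, 36 of 36 pairs of members had a Pearson's r above 0 over 23 libraries, from 0.07 to 0.96 with a median of 0.65, and the 23 pairs passed an adjusted permutation p of 0.05. The FPKM as deposited gave 24 pairs. Members share libraries and thus depth and RNA quality, so these r are descriptions of the 23 livers. The same share over pairs of all genes was not computed, so the counts do not set members apart from other genes. Genes outside the members reached r as high, such as Pgm1 with C3 at 0.95 and Ppib with Hp at 0.94. Fga and Fgb had r = 0.96 (Spearman's rho 0.93), Fga and Fgg 0.95 (0.94), and Fgb and Fgg 0.94 (0.91), each with a permutation p of 1e-05, the smallest that 100000 draws can give, and an adjusted p of 4.5e-05. Without the 2 livers farthest from the median they were 0.95, 0.94 and 0.91. Within each group the r of Fga with Fgb was 0.96 in 7 DL.reuteri, 0.94 in 8 darkness and 0.99 in 8 control livers. Fgg had r = 0.89 with C3 and 0.87 with Itih4.

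Lcn2 and Orm1 had lower r with most members. Lcn2 passed the adjusted permutation p with Hp and, at r = 0.49, with Fgb. It had r = 0.64 with Hp (rho 0.65, adjusted permutation p = 0.00653), 0.56 without the 2 livers farthest from the median, and the r within groups was 0.29 in 7 DL.reuteri, 0.87 in 8 darkness and 0.44 in 8 control livers. Lcn2 had r = 0.07 with Crp (rho 0.17, adjusted permutation p = 0.757), and the r within groups was -0.53 in the DL.reuteri, 0.34 in the darkness and 0.27 in the control livers. Orm1 had r = 0.49 with Hp (rho 0.42, adjusted permutation p = 0.0353 for r and 0.0738 for rho), and 0.09 to 0.29 with the other 7 members. Whether any pair differed in r between groups was not tested.

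**Figure D4:**
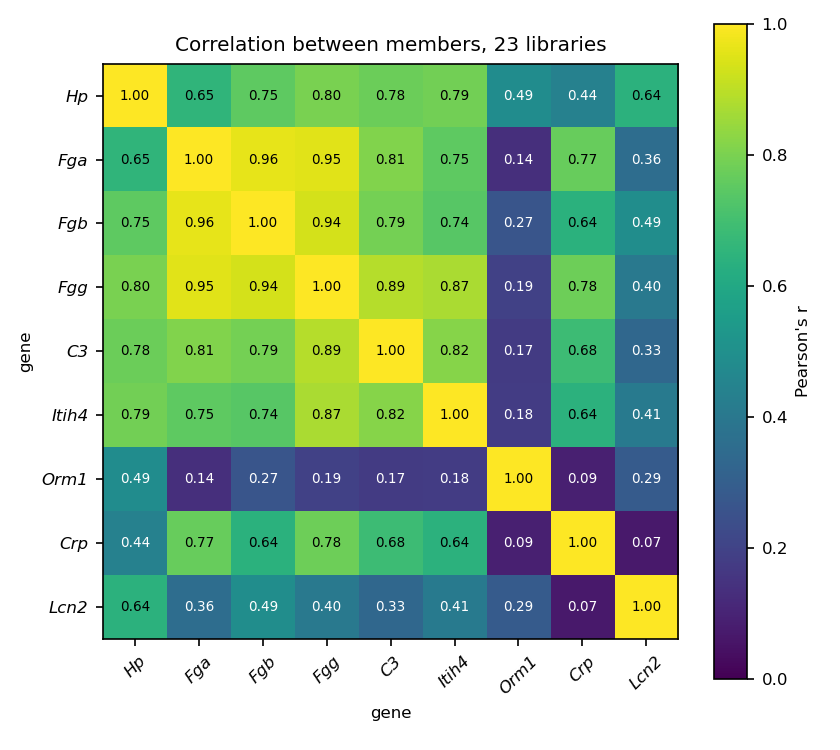
Pearson's r between 9 members over 23 libraries, without DL.reuteri 3, on log2 values rescaled by median ratios and centred on group means, with darker cells for lower r. The block of Fga, Fgb and Fgg has r of 0.94 to 0.96, while Orm1 has r of 0.49 or below with each of the others.

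Among 12142 genes outside the members, the gene most like each fibrinogen chain over the 23 libraries was C1r, which encodes a protease of the classical complement pathway, with r = 0.88 for Fga, 0.87 for Fgb and 0.93 for Fgg. C9, a subunit of the membrane attack complex, was among the 3 nearest for Fga (0.87) and Fgb (0.85). Those nearest to the others were Mtpn for Crp (0.93), Ppib, a chaperone of the endoplasmic reticulum, for Hp (0.94), Slc2a8, a glucose transporter, for Orm1 (0.77), Ercc3 for Itih4 (0.93), Pgm1, an enzyme of glycogen metabolism, for C3 (0.95) and Zbtb45 for Lcn2 (0.75). Orm1 and Lcn2 thus had the lowest best matches of the 9. These genes were picked as the highest of many and carry no test.

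The summed share of the 10 members in the FPKM outside the mitochondrial genome moved with the mitochondrial share. In the 7 livers with under 25% mitochondrial FPKM the members made up 3.69 to 5.07%, in the 12 livers with 25 to 50% they made up 2.77 to 4.65%, and in the 4 livers over 50% other than DL.reuteri 3 they made up 2.47 to 3.24%. In DL.reuteri 3 it was 1.29%. By group it was 3.48 ± 1.10% in DL.reuteri, 3.81 ± 0.768% in darkness and 3.74 ± 0.747% in control livers (SD, n = 8 each), differences smaller than the spread between rats. The part of the mitochondrial share in the members' values was not tested.

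**Figure D5:**
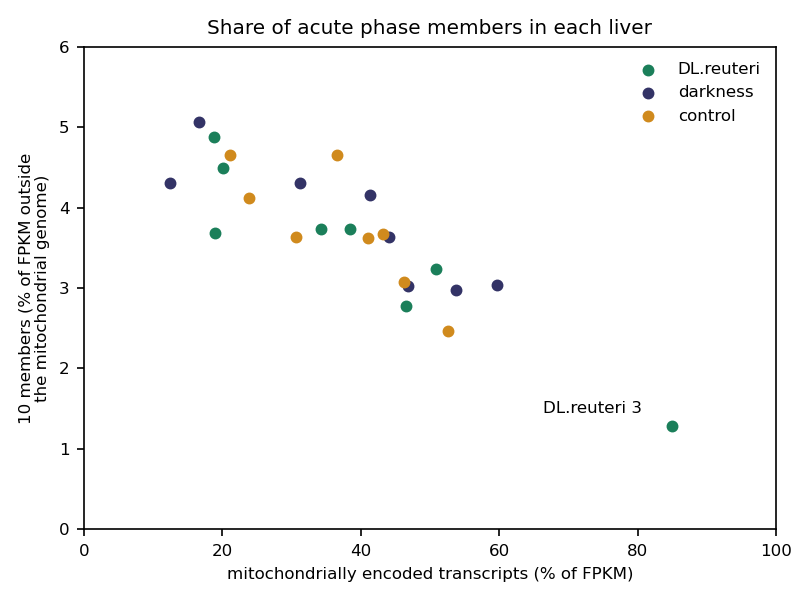
Share of the 10 members in the FPKM outside the mitochondrial genome (y axis, %) against the share of mitochondrially encoded transcripts in all FPKM (x axis, %), 1 point per liver, coloured by group. DL.reuteri 3 lies at 85.0% and 1.29%, apart from the others, and livers of all 3 groups spread over the rest of the range.

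Other genes of the response were set beside the members. Of 20 further positive acute phase genes, 16 were measured and passed the filter. Limma called 0 of them in each comparison with 24 libraries of FPKM as deposited. Without DL.reuteri 3 it called 1 of 16 between DL.reuteri and darkness livers, Hamp, which was lower, where 10% of all genes were called, 1.23% lower. With 24 libraries rescaled by median ratios Hamp was the 1 called as well, again lower, where 2.34% of all genes were called lower. Hamp encodes hepcidin, the hormone that closes the iron exporter ferroportin and a target of STAT3. It had 385, 1239 and 3823 FPKM in the lowest, median and highest DL.reuteri liver, 2138, 2766 and 3353 in darkness livers, and 1409, 3163 and 3636 in control livers. Of 8 DL.reuteri livers, 6 lay below every darkness liver, 1 lay within their range and 1 lay above it. The log2 difference between DL.reuteri and darkness was -1.18 (limma adjusted p = 0.0887) with 24 libraries and -0.94 (limma adjusted p = 0.0403) with 23. Lbp, which binds bacterial lipopolysaccharide, differed by -0.43 (limma adjusted p = 0.431). The 16 genes had a median log2 difference of -0.09 with 24 libraries and 0.08 with 23, beside 0.07 and 0.15 for all genes.

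Of 12 negative acute phase genes, 11 passed the filter. On the FPKM as deposited, limma called 0 with 24 libraries. With 23 it called 1 of 11, Apoa1, lower between DL.reuteri and darkness livers, where 10% of all genes were called, 1.23% lower. With 24 libraries rescaled by median ratios Apoa1 was the 1 called as well, again lower, where 2.34% of all genes were called lower. The 11 genes had a median log2 difference of -0.40 with 24 libraries, with 1 of 11 above 0, and 0.0453 with 23, beside 0.07 and 0.15 for all genes. Apoa1 encodes the main protein of high-density lipoprotein. It had 220, 964 and 1774 FPKM in the lowest, median and highest DL.reuteri liver, 1482, 1891 and 2320 in darkness livers, and 978, 1376 and 2626 in control livers. Its log2 difference between DL.reuteri and darkness was -1.01 (limma adjusted p = 0.0911) with 24 libraries and -0.72 (limma adjusted p = 0.0193) with 23. Fetub, which encodes fetuin B, differed by -0.53 (limma adjusted p = 0.221).

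Of 24 genes of acute phase signalling, 22 passed the filter, and limma called 0 with 24 libraries of FPKM as deposited. Without DL.reuteri 3 it called 1, Hnf4a, higher in DL.reuteri than in control livers, where 2.07% of all genes were called. It called 5 of 22 higher and 0 lower between DL.reuteri and darkness livers, where 8.81% of all genes were called higher. With 24 libraries rescaled by median ratios it called Hnf4a alone of the 22, higher in DL.reuteri than in darkness livers. There 1.41% of all genes were called higher, and the median of the list was -0.0461, beside 0.0117 for all genes. Between DL.reuteri and control livers this setting also called Hnf4a alone, again higher, where 52 of 12151 genes were called higher. The 5 called without DL.reuteri 3 were Hnf4a, a hepatocyte transcription factor, Lifr, a receptor chain that pairs with gp130, the kinases Jak1 and Jak2, and the phosphatase Ptpn11. Lifr had a log2 difference of 1.53 (limma adjusted p = 0.115) with 24 libraries and 1.84 (limma adjusted p = 0.0138) with 23. Hnf4a had 0.59 (limma adjusted p = 0.0816) with 24 and 0.66 (limma adjusted p = 0.00841) with 23. Osmr, the oncostatin M receptor, had 0.73 (limma adjusted p = 0.248) with 24 libraries. The median of the 22 genes was 0.04 with 24 libraries and 0.17 with 23, beside 0.07 and 0.15 for all genes.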

How the data were processed

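Liver RNA of 24 rats was measured, 8 per group, with groups taken from the sample titles. The authors trimmed reads with Seqtk, mapped them to Rnor 6.0 with HISAT2 2.0.4 and deposited FPKM per gene from StringTie, which scale with all mapped fragments, mitochondrial ones included, so a high mitochondrial share lowers the other genes. 1 repeated row was left out. From the deposited FPKM, log2(FPKM + 1) was fitted by limma 3.58.1 (R 4.3.3), using a trend in the variance and the 3 groups together. Genes had to reach 0.5 FPKM in 8 or more libraries, which left 12151, and Benjamini-Hochberg adjusted p under 0.05 were called. A log2 difference on this scale understates changes of low genes. Correlations used 23 libraries and 100000 permutations within groups, in Python 3.11.15 with numpy 2.4.6, scipy 1.17.1 and pandas 2.3.3. The fit and the correlations were tested on simulated data.

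Named genes are the members, up to 4 genes of each other list by limma p, and the 3 genes nearest to each member, of which those named are given with their r. Jak1, Jak2 and Pzp were added after their values were seen. The members and lists were chosen with earlier results of these data known. Alternatives were a pseudocount of 0.1, no filter, median-ratio rescaling, rescaling by the nuclear FPKM sum, fits of 2 groups, the library term of Ballgown in limma, a block for the replicate number, a covariate of adipocyte markers, omission of control 8 with DL.reuteri 2, and omission of each library in turn. Joint fits without DL.reuteri 3 and with median ratios, the Ballgown term or the block were chosen after seeing the data. Promoter sequences are from RefSeq on GRCr8, whose coordinates are not those of Rnor 6.0.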

Additional observations from a re-analysis of the deposited data

Results flagged for a closer look

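In the DL.reuteri group, DL.reuteri 3 lay far below the 7 other livers for 6 members. The gap to the nearest liver, as a share of the whole range on the log2 scale, was 0.795 for Hp, 0.733 for Fgb, 0.703 for Orm1, 0.624 for Fgg, 0.599 for C3 and 0.596 for Fga, each above Dixon's critical value of 0.526 for 8 values. Hp had 435 FPKM in DL.reuteri 3 and 3750 to 6525 FPKM in the 7 others, and Fgb had 139 and 983 to 2001 FPKM. Chance alone marks about 1 in 20 groups, and 27 sets of 8 values were examined, of which 6 were marked. All 6 were from this library, which had 85.0% mitochondrial FPKM. Rescaled by median ratios, Hp in DL.reuteri 3 was 770 FPKM, against 3401 FPKM or more in the other DL.reuteri livers, so the gap in Hp was there after rescaling too. The part of RNA quality in it was not tested.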

How the results depend on the processing

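No setting called a member between darkness and control or between DL.reuteri and control livers. Between DL.reuteri and darkness livers 1 member was called with median ratios, where 455 of 12151 genes were called, 284 lower. With the nuclear FPKM sum 1 member was called, where 1017 genes were called, 157 lower. The member was Lcn2 both times. With the Ballgown term 3 were called (Lcn2, Hp and Orm1), where 824 genes were called, 697 lower. When each library was left out, 0 to 1 members were called, where 0 to 1220 genes were called. Without DL.reuteri 3, 1 was called with median ratios, 1 with the block and 0 with the Ballgown term, and the counts over all genes for these fits are given below. The cause of these changes was not tested.

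Counts over all genes moved more. Between DL.reuteri and darkness livers, 10 genes were called, against 4 with a pseudocount of 0.1, 4 with no filter, 455 with median ratios (171 higher, 284 lower), 1017 with the nuclear sum (860 higher, 157 lower), 3 with 2 groups, 824 with the Ballgown term (127 higher, 697 lower), 0 with the adipocyte covariate, 1 without control 8 and DL.reuteri 2, and 0 to 1220 with 1 library left out, the highest without DL.reuteri 3. Without DL.reuteri 3 it was 649 with median ratios and 0 with the Ballgown term. Between DL.reuteri and control livers 17 were called, against 3, 159, 255, 1, 466, 3 and 0 with no filter, median ratios, the nuclear sum, 2 groups, the Ballgown term, the adipocyte covariate, and without control 8 and DL.reuteri 2, and 0 to 251 with 1 library left out. Without DL.reuteri 3 it was 235 with median ratios and 0 with the Ballgown term. Between darkness and control livers the nuclear sum called 1 gene. The median log2 difference of all genes between DL.reuteri and darkness was 0.07, and 0.17 with the nuclear sum.

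The signs of several member differences turned. Between darkness and control livers, log2 differences were 0.0545 for Hp, 0.0273 for Orm1 and 0.0312 for C3 with median ratios, with and without DL.reuteri 3. With the Ballgown term they were 0.13 for Crp, 0.35 for Hp, 0.37 for Orm1, 0.15 for Itih4 and 0.13 for C3, and without DL.reuteri 3 they were 0.0179 for Orm1 and -0.0106 for Fgg. Without control 8 and DL.reuteri 2 they were -0.0455 for Fgb and -0.10 for Fgg. Between DL.reuteri and darkness livers they were -0.056 for Crp and -0.16 for Itih4 with the Ballgown term, -0.0154 for Itih4 without control 8 and DL.reuteri 2, and 0.13 for C3 with the nuclear sum. Without DL.reuteri 3, the Ballgown term gave 0.19 for Fga, 0.21 for Fgb, 0.31 for Fgg and 0.47 for C3, and median ratios gave 0.0315 for C3.

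With 1 library left out, the differences between darkness and control livers ran over -0.17 to 0.079 for Hp, -0.16 to 0.10 for Orm1, -0.0455 to 0.13 for Fgb, -0.10 to 0.16 for Fgg, -0.29 to 0.0432 for Itih4 and -0.15 to 0.0311 for C3. Those between DL.reuteri and darkness livers ran over -0.38 to 0.0803 for Fga, -0.43 to 0.12 for Fgb, -0.54 to 0.14 for Fgg, -0.0154 to 0.40 for Itih4 and -0.13 to 0.22 for C3.

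Of 8 same-numbered pairs, 5, 4 and 3 had deviations correlated over 0.1 in darkness against control, DL.reuteri against darkness and DL.reuteri against control. These pairs were not set beside pairs with unlike numbers, so whether replicate numbers pair the rats was not tested. With the replicate block, 3 genes were called between DL.reuteri and darkness and 9 between DL.reuteri and control livers, and the adjusted p of Lcn2 was 0.0899 by limma. With the block and without DL.reuteri 3, 1511, 470 and, between darkness and control, 1 were called, and log2 differences between DL.reuteri and darkness were 0.0613 for Fga, 0.10 for Fgb, 0.11 for Fgg and 0.19 for C3.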
